A study of Mus musculus with 2 samples.

Results

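EGR1 binding in exons away from promoters was examined in the frontal cortex of the mouse. The members are the peaks of an EGR1 ChIP-seq whose centre lay more than 2 kb from every transcription start site (TSS) of GENCODE release M21 and inside a coding exon or an untranslated region (UTR) of a protein-coding gene. There were 225 such exonic peaks among the 12014 EGR1 peaks, or 1.87% (95% Wilson interval 1.65 to 2.13%), and they made up 5.10% of the 4411 peaks that lay more than 2 kb from a TSS. The ChIP-seq sequences the DNA that comes down with EGR1 when crosslinked chromatin is treated with its antibody, and it was carried out in duplicate. The tissue was the frontal cortex of males aged 6 weeks. The mice were F1 hybrids of C57BL/6N fathers and 129SvEv mothers, with no transgene, treatment or deletion named, and the cortices of several mice were pooled for each ChIP. The tissue holds neurons and glia, so the cell type in which a peak arose cannot be told from the list. The 2 replicates had been merged by the authors into 1 list of positions, each with an irreproducible discovery rate (IDR), a value that is low for a peak that ranked high and alike in both. The list carries no read counts, so the depth behind each peak is unknown and no spread between replicates could be computed. The tests below therefore compare groups of peaks within 1 list, not conditions, and peaks in neighbouring places may not be independent.

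EGR1, also called Zif268 or Krox-24, is a transcription factor with zinc fingers that neurons induce within minutes of synaptic activity, and it is widely used as a marker of active neurons. Its fingers read a G-rich sequence that holds CpG dinucleotides, and most of its known sites lie in promoters. Exons differ from promoters as a substrate, since their bases are also constrained by the protein code, are transcribed as part of the gene body and are usually methylated at CpG. Most CpGs of the mouse genome have been lost by mutation of methylated cytosine, and a CpG ratio (the number of CpG found, multiplied by the length and divided by the product of the numbers of C and G) near 1 marks sequence in which they have been kept.

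The sequences below are the EGR1 motifs of named exonic peaks, shown because they carry the recognition sequence inside exons. The motif searched was GCGKGGGCG on both strands, where K is G or T. Each was read from GRCm38 (mm10) 5′ to 3′ on the strand that holds the motif, with the 9 bases of the motif in capitals and 10 bases on each side in lower case. The first group is in 3′UTRs, the second in coding exon peaks with the lowest IDR, and the third in genes of transcription factors.
Shank1 3′UTR, minus strand: ttgacgcacaGCGGGGGCGggttccagct
Ehd2 3′UTR, plus strand: agcagggcgtGCGTGGGCGggagattctc
Sptbn4 coding exon peak, minus strand: accggtgagcGCGTGGGCGgggctttgga
Sptbn4 coding exon peak, plus strand: aggtggcggcGCGGGGGCGgagcctccct
Gfy coding exon, plus strand: ttgggcggcaGCGGGGGCGtggaaggtgg
Gdf15 coding exon, minus strand: ctgagcatgtGCGTGGGCGagtgtcccca
Frem2 coding exon, minus strand: tcccccgtggGCGTGGGCGgctggcagca
Sox4 3′UTR, minus strand: gagaaggagcGCGGGGGCGttagtggacc
Neurod2 coding exon, minus strand: tcggccgtgcGCGGGGGCGtccactccga
Neurod2 3′UTR, plus strand: acagatccgcGCGTGGGCGgggcagccag
Runx1 coding exon, plus strand: ggcaggatgcGCGGGGGCGatctctctcc
Mycn coding exon, plus strand: atctttttctGCGGGGGCGcgtcctcgct
Both forms of the motif occurred in coding exons and in 3′UTRs. In the Sptbn4 coding exon peak, the minus-strand motif had its middle base outside the exon and the plus-strand motif inside it.

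Of the 225 exonic peaks, 118 were centred in a coding exon and 107 in a 3′UTR, and 0 lay only in a 5′UTR. For 15 of them the centre was coding in some transcripts and UTR in others, and these were counted as coding exon peaks. The distance to the nearest TSS ran from 2010 bp to 114506 bp, with a median of 5567 bp, and 42 peaks lay under 3000 bp and 61 over 10000 bp away. The members nearest to the 2 kb limit were in Lor (2010 bp, IDR 1.42e-07), Rin2 (2012 bp, 0.00748) and Gm21992 (2015 bp, 0.00295). Just outside it were exonic peaks in Srgap2 (1997 bp, IDR 5.49e-07), Armh3 (1992 bp, 1.49e-04) and Mobp (1976 bp, 9.72e-07). Adding the TSSs of RefSeq placed 11 of the 225 within 2 kb of a start. Peaks were found on each of the 19 autosomes, led by chromosome 11 with 32 and chromosome 7 with 23. These were 3.22% of the 994 EGR1 peaks on chromosome 11 and 2.53% of the 908 on chromosome 7, against 1.87% over all peaks. The X chromosome held 0 exonic peaks, but also only 16 of 2129 intronic and 124 of 7598 TSS-proximal peaks. Nothing is read from these counts by chromosome. A further 3 were on an unplaced scaffold, whose sequence was not used, so that values from sequence rest on 222 peaks.

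**Figure D1:**
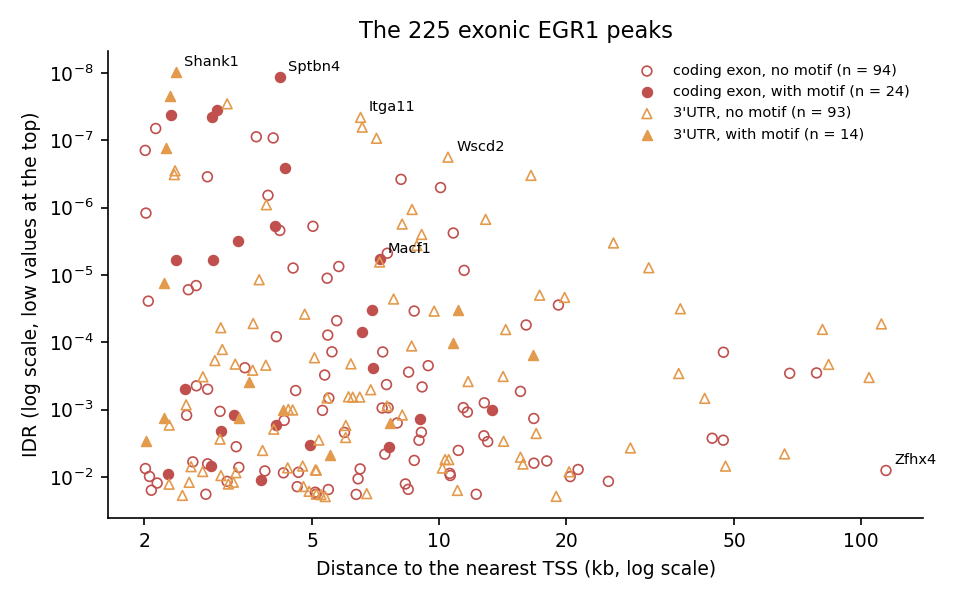
Each of the 225 exonic EGR1 peaks by its distance to the nearest TSS (x, kb, log scale) and its IDR (y, log scale, low values at the top). Circles are coding exon peaks and triangles 3′UTR peaks, and filled symbols hold an exact motif. The 3 peaks on the scaffold are drawn open and counted with those of no motif, although their sequence was not searched. Peaks with very low IDR were found near the 2 kb limit, as in Shank1 at 2378 bp, and farther away, as in Sptbn4 at 4190 bp and Wscd2 at 10488 bp.

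Most exonic peaks were centred in the last exon of their host transcript, 1 transcript being chosen for each peak. This exon held 161 of 225 (71.6%, 95% Wilson interval 65.3 to 77.1%), which was 106 of the 107 3′UTR peaks and 55 of the 118 coding exon peaks. The share of all distal exon sequence that lies in last exons is not given here. 3′UTRs made up 27.0 of the 48.5 Mb of distal exon sequence. Internal exons held 63, of which 62 were coding. The host exons of coding exon peaks had a median length of 719 bp and those of 3′UTR peaks 2209 bp. The exon blocks around windows tiled over all distal exons had medians of 141 bp for coding windows and 2849 bp for 3′UTR windows. These are unlike measures and were not compared. A host exon is a whole annotated exon, while a block is merged exon sequence cut 2 kb from any TSS. Each block, however short, also gave at least 1 window. In all, 135 of 225 peaks (60.0%) lay in an exon of at least 1000 bp, with no share over all exons beside it. The whole interval lay in exon sequence for 99 of the 107 3′UTR peaks and for 51 of the 118 coding exon peaks, so that the coding group more often reached into an intron. These values describe where the members lie and were not tested.

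Per length of sequence, distal exons held more EGR1 peaks than distal introns. The 222 peaks on assembled chromosomes in 48.5 Mb of distal exon sequence gave 4.57 peaks per Mb (95% exact Poisson interval 3.99 to 5.22), against 2.64 (2.53 to 2.75) in introns of protein-coding genes and 1.30 (1.24 to 1.36) in intergenic sequence. The exonic density was 1.74 times the intronic and 3.53 times the intergenic one. Coding exons had 5.59 peaks per Mb (4.63 to 6.70) and 3′UTRs 3.85 (3.14 to 4.66), a ratio of 1.45, with intervals that overlap narrowly. Sequence within 2 kb of a TSS had 25.9 peaks per Mb, 5.67 times the exonic density. These intervals cover counting error only, and no correction was made for how well reads map to each class. The exonic peaks also lay nearer to a TSS, with a median of 5641 bp on assembled chromosomes. The medians were 11315 bp for intronic and 15666 bp for intergenic peaks. Densities were computed at the limit of 2 kb only, and the part of TSS distance in them was not tested.

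**Figure D2:**
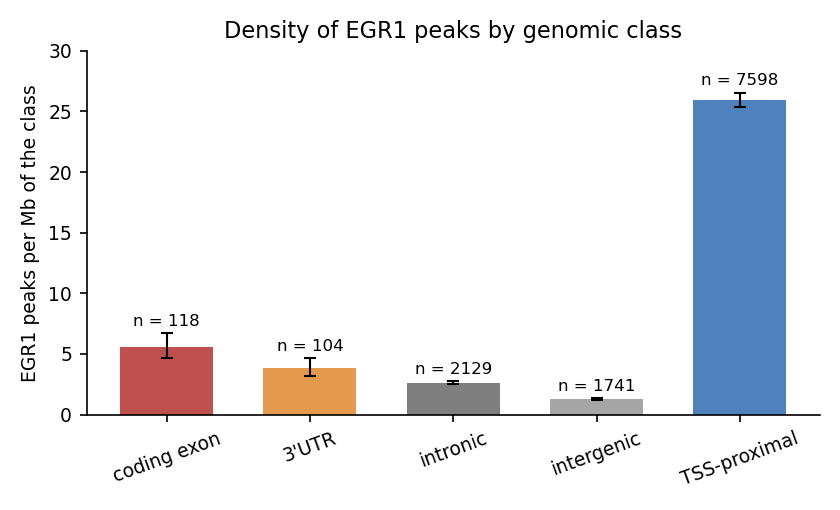
EGR1 peaks per Mb of sequence in coding exons, 3′UTRs, introns and intergenic sequence more than 2 kb from any TSS, and in sequence within 2 kb of a TSS. Bars are peaks divided by the length of the class and error bars the 95% exact Poisson intervals, with coding exons at 5.59 and introns at 2.64.

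The EGR1 motif was more frequent in exonic peaks than in intronic ones. An exact GCGKGGGCG was found in 38 of 222 exonic peaks, or 17.1% (95% Wilson interval 12.7 to 22.6%), whereas it was found in 0.112% of the 236223 windows of 250 bp tiled over the same distal exons. The median peak width of 256 bp was close to that of the windows. In intronic peaks the share was 5.45% (116 of 2129), and the odds were 3.58 times higher in exonic peaks (95% exact interval 2.34 to 5.39, Fisher's exact test, p = 6.49e-09, adjusted p = 2.38e-08 over 11 tests). With a TSS limit of 5 kb the exonic share was 9.30% (12 of 129), and the odds ratio against intronic peaks was 2.02 (Fisher's exact test, p = 0.0368). Against intergenic peaks, of which 7.30% held the motif, the odds ratio was 2.63 (1.72 to 3.93, Fisher's exact test, adjusted p = 2.07e-05). That difference no longer passed at 5 kb (Fisher's exact test, p = 0.268, with an odds ratio of 1.48). The TSS-proximal share was 22.2%, and the odds ratio of exonic against TSS-proximal peaks was 0.72 (0.49 to 1.03, Fisher's exact test, adjusted p = 0.109). This comparison depended on the motif and the peaks counted, as the odds ratio was 1.60 for GCGTGGGCG alone (p = 0.0676), 0.388 at 5 kb (p = 6.39e-04) and 0.571 with 1 peak per gene or 100 kb (p = 0.00213, each by Fisher's exact test). With 1 mismatch allowed, 68.9% of exonic, 47.2% of intronic and 81.6% of TSS-proximal peaks held a site, and the odds ratio against TSS-proximal peaks was 0.5 (Fisher's exact test, p = 7.12e-06).

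**Figure D3:**
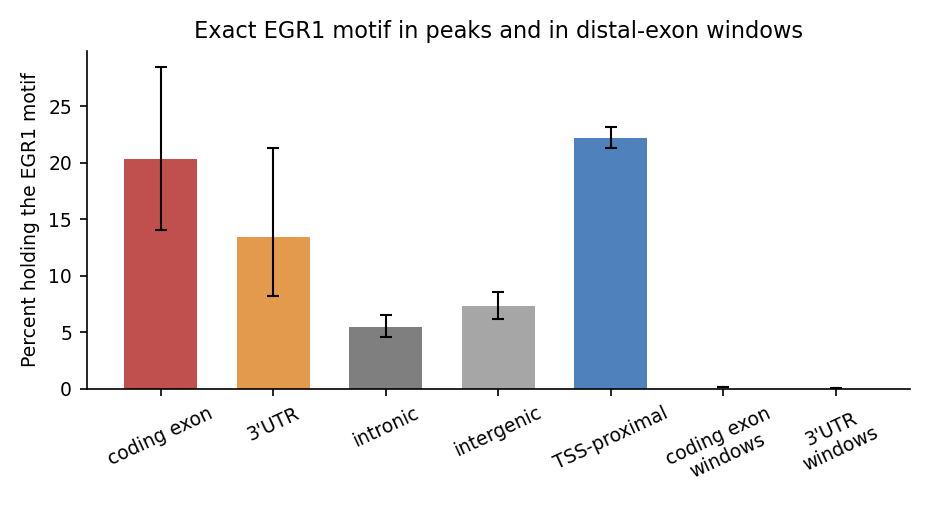
Percent of EGR1 peaks that hold an exact GCGKGGGCG motif, by class, with 95% Wilson intervals, and on the right the percent of 250-bp windows tiled over distal coding exons and 3′UTRs (hatched). Coding exon peaks stood at 20.3% and their windows at 0.152%, and 3′UTR peaks at 13.5% and their windows at 0.0634%.

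Within the exonic peaks, 24 of 118 coding exon peaks (20.3%, 14.1 to 28.5%) and 14 of 104 3′UTR peaks (13.5%, 8.19 to 21.3%) held the exact motif. The odds ratio of 1.64 (0.76 to 3.66) did not pass the test (Fisher's exact test, adjusted p = 0.259), and the interval includes both equal odds and odds that are 3 times higher in coding exons. When 1 mismatch was allowed the shares were 78.8% and 57.7%, and the odds ratio of 2.73 passed (Fisher's exact test, p = 8.21e-04). The share with an exact motif was 28.3% (13 of 46) at an IDR of 1e-05 or less, 12.7% (9 of 71) from there to 0.001 and 15.2% (16 of 105) above. It was 30.6% (22 of 72) in exonic peaks with a CpG ratio of at least 0.6 and 10.7% (16 of 150) below that. In intronic peaks the same shares were 27.4% and 4.10%, and among peaks with a ratio under 0.6 the odds of a motif were 2.79 times higher in exonic peaks (Fisher's exact test, p = 8.96e-04, a comparison chosen after seeing the data).

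The motifs lay at the middle of the peaks. Of the 41 exact sites in the 38 peaks, 34 (82.9%, 68.7 to 91.5%) were within 50 bp of the peak centre, and 39 had their middle base in exon sequence of the host gene. In terms of density there were 76.6 sites per 1000 exonic peaks for each 50 bp within 50 bp of the centre, against 0.90 at 250 to 500 bp (34 and 2 sites). The same values were 26.3 and 0.42 for intronic peaks and 94.8 and 5.44 for TSS-proximal peaks. The sites were not evenly spread about the centre. Of the 39 within 100 bp, 31 lay towards lower coordinates, on either strand of the motif (15 of 21 on the plus and 16 of 18 on the minus strand), with a median of 22 bp below the centre. In intronic and TSS-proximal peaks the median was 17 bp below the centre in each, and 73.0% and 71.0% of the sites lay towards lower coordinates. Moving all centres by 17 bp, an alternative chosen after seeing the data, gave 223 exonic peaks, of which 216 were among the 225. Sptbn4, Zfp385a and Pcdh15 each had a peak with 2 exact sites, and the pair in Pcdh15 overlapped.

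**Figure D4:**
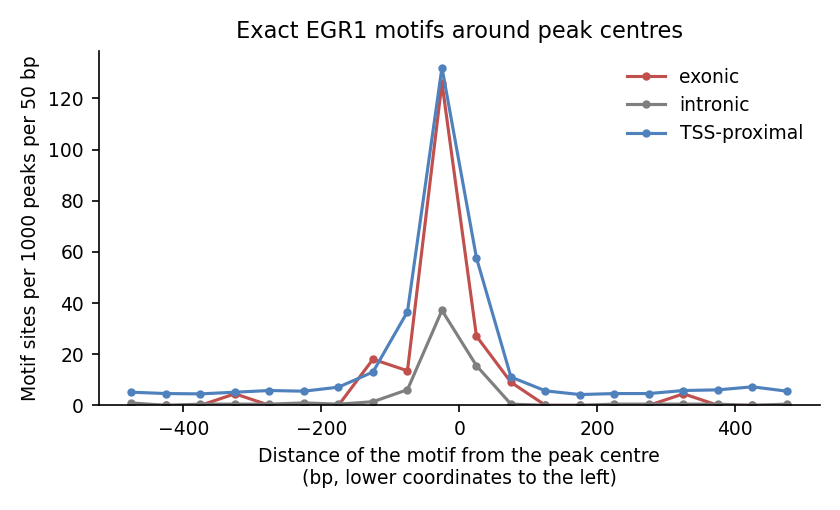
Exact EGR1 motifs around peak centres, as sites per 1000 peaks in bins of 50 bp (y) by distance from the centre (x, bp, lower coordinates to the left), for exonic, intronic and TSS-proximal peaks. In each class the sites gather within 50 bp of the centre, where exonic peaks had 76.6 and intronic peaks 26.3 per 1000 peaks and 50 bp, and more lie to its left than to its right.

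Seen from the sequence, few of the possible sites in distal exons were in a peak. The exact motif occurred 251 times in distal exon sequence of the assembled chromosomes, and 39 of these sites (15.5%, 11.6 to 20.5%) lay in an EGR1 peak. The share was 14.5% (25 of 172) in coding exons and 17.9% (14 of 78) in 3′UTRs, and 18.6% (16 of 86) for GCGTGGGCG and 13.9% (23 of 165) for GCGGGGGCG. These pairs of shares have overlapping intervals and were not tested. Motifs in coding sequence most often began at the second codon position. Among the 169 motifs wholly in coding sequence, 50 on the coding strand and 63 on the other did so in the reading direction of the gene. At the first position the counts over all 169 were also low, 10 on the coding strand and 12 on the other. Among the 25 in a peak, 7 and 10 began at the second position and 0 at the first. With so few sites nothing is read from the 0. The motif showed no preferred orientation to the gene, with 16 of 40 sites on the coding strand (40.0%, 26.4 to 55.4%, exact binomial test, adjusted p = 0.295).

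Exonic EGR1 peaks had higher CpG ratios than intronic peaks, than the sequence around them and than the other distal exon sequence of their genes. The median CpG ratio was 0.473 (quartiles 0.294 and 0.679), and 32.4% of the peaks (72 of 222) reached 0.6, a limit often used for CpG islands. In intronic peaks the median was 0.272 and the share 5.82%, an odds ratio of 7.76 (5.46 to 10.96, Fisher's exact test, adjusted p = 1.28e-27). Of the windows over the same distal exons 5.36% reached 0.6, and of the TSS-proximal peaks 72.4%. Coding exon peaks had a median of 0.545 and 3′UTR peaks of 0.384. The ratio was higher in the peak than the mean ratio of its flanks, taken 5 kb away on either side, in 184 of 222 peaks (82.9%), with medians of 0.473 and 0.205 (exact sign test, adjusted p = 1.97e-23). Since exons may differ in composition from the sequence around them, each peak was also compared with the other distal exon sequence of its own gene. That sequence joins coding sequence and UTR, and includes the rest of the exon that holds the peak. There the ratio was higher in the peak in 141 of the 220 with enough other exon sequence (64.1%), with medians of 0.470 and 0.364 (exact sign test, adjusted p = 7.70e-05). With coding sequence only, it was higher in 71 of 110 coding exon peaks, with medians of 0.524 and 0.449 (exact sign test, p = 0.00294). GC content was also higher in the peak in 166 of the 220 (75.45%), with medians of 57.6% and 52.6%. The motif itself holds CpG, and the part of the motif or of GC content in the CpG ratio was not tested.

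**Figure D5:**
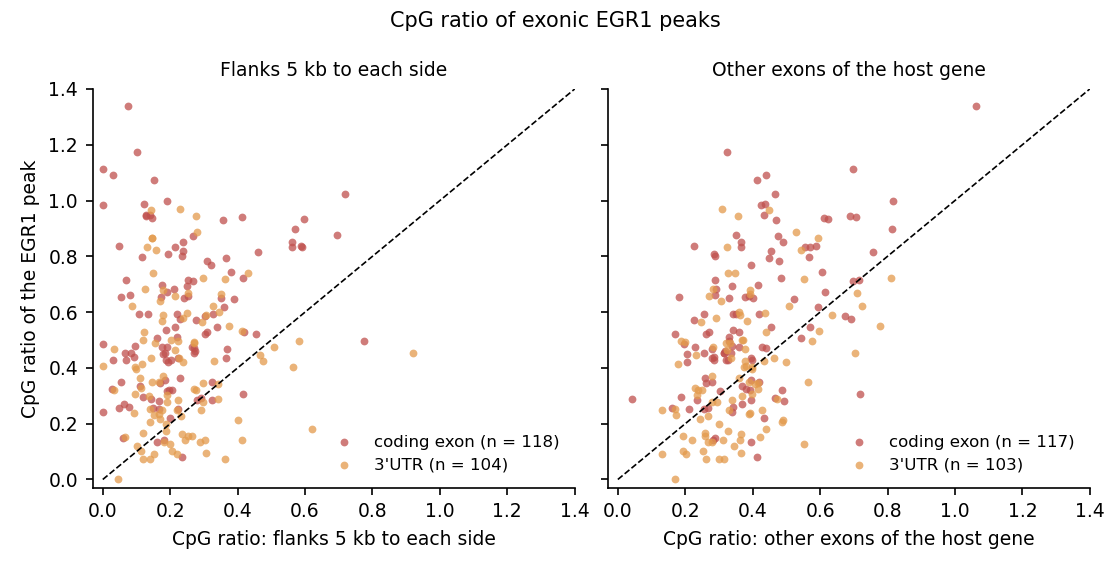
CpG ratio of each exonic EGR1 peak (y) against the mean of its flanks at a distance of 5 kb (left) and against the other distal exon sequence of its host gene (right). Each point is a peak, red for coding exons and orange for 3′UTRs, and the dashed line marks equal ratios; 184 of 222 points lie above it on the left and 141 of 220 on the right.

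The highest CpG ratio among exonic peaks was that of a coding exon peak in Zfp771, a zinc finger gene, at chr7:127254090-127254339. It held 41 CpGs in 250 bp, for a ratio of 1.34, while the flanks had 0.075 and the other distal exon sequence of the gene had 1.06. Its IDR was 0.00758, and it had no exact motif. At the other end, the 3′UTR peak of Colec12, named after its value was seen, held 0 CpG.

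By their IDR, exonic peaks could not be told from intronic ones, and were less reproducible than TSS-proximal ones. The median IDR was 0.000680 (n = 225), and 120 of 225 (53.3%) had an IDR of 0.001 or less. For intronic peaks this was 47.0% (odds ratio 1.29, 0.97 to 1.71, Fisher's exact test, adjusted p = 0.109), and the interval does not exclude a higher share in exons. TSS-proximal peaks more often had such an IDR, 66.4%, with an odds ratio of 0.58 for exonic against TSS-proximal peaks (0.44 to 0.76, Fisher's exact test, adjusted p = 1.44e-04). At an IDR limit of 0.01 that difference did not pass (p = 0.0738 by Fisher's exact test, with an odds ratio of 0.68).

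The exonic peak with the lowest IDR was in the 3′UTR of Shank1, a scaffold of the postsynaptic density, at chr7:44360060-44360311. Its IDR was 9.74e-09, it lay in the last of 25 exons, and its position is also a 3′UTR of 1700008O03Rik, so the host gene is not unique. Its CpG ratio was 0.967 against 0.142 in the flanks, and the motif printed above was 11 bp from the centre. Next came a coding exon peak of Sptbn4, which encodes the spectrin of axon initial segments and nodes of Ranvier. It lay in exon 33 of 36 at chr7:27361503-27361714, with an IDR of 1.16e-08 and a CpG ratio of 0.942. The 3′UTR peak of Ehd2, an ATPase of caveolae, at chr7:15948451-15948657 had an IDR of 2.20e-08, and its motif was 18 bp from the centre. The 3′UTR peak of Cyb561d1, at chr3:108197364-108197540, had an IDR of 2.89e-08 and no exact motif, but it had 2 sites with 1 mismatch allowed.

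Among the coding exon peaks of low IDR were those of Gfy, at chr7:45176462-45176682 in the last of 5 exons, with an IDR of 3.55e-08, and of Gdf15, at chr8:70629688-70629879 in the last of 2 exons, with an IDR of 4.27e-08. Gfy encodes a Golgi protein of olfactory neurons, and Gdf15 a secreted factor of the TGF-beta family that is induced by stress. Frem2, an extracellular matrix protein, held a peak in exon 17 of 24 at chr3:53525845-53525981. This peak had an IDR of 4.56e-08, 10 CpGs and a CpG ratio of 0.983, and the windows 5 kb away had a ratio of 0. The 4 coding exon peaks with an exact motif and the lowest IDR (Sptbn4, Gfy, Gdf15 and Frem2) each had a higher CpG ratio than their flanks.

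Some peaks of very low IDR had no exact motif. Itga11, an integrin that binds collagen, held a 3′UTR peak at chr9:62783290-62783497 with an IDR of 4.60e-08, a CpG ratio of 0.306 and 0 exact motifs. The coding exon peak of Tmem8, at chr17:26120233-26120353, had an IDR of 6.72e-08 and also lacked it. Both held 1 site with 1 mismatch allowed. Of the 10 exonic peaks with the lowest IDR, 6 thus had an exact motif and 4 did not.

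The 225 peaks lay in 216 genes, or 1.16% of the 18614 protein-coding genes that have distal exon sequence. Several genes held more than 1. AC149090.1, on the scaffold, held 3 in 3′UTR sequence, and others, among them Espn, Gabbr2, Lor, Neurod2, Sox11, Sptbn4 and Srcin1, held 2 each. The pair in Lor was 509 bp apart, that in Srcin1 542 bp and that in Sox11 639 bp, and a binding event spread over neighbouring intervals cannot be told apart from separate ones. In Neurod2 a coding exon peak with an IDR of 6.05e-06 and a 3′UTR peak with an IDR of 0.00133 were 975 bp apart, and each had its own motif, printed above. The pair in Sptbn4 was 4881 bp apart, and only the peak in exon 33 had an exact motif.

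Receptors and channels of neurons were among the hosts at low counts. Of the 88 potassium channel genes in the list, 4 held an exonic peak (4.55%, against 1.16% of all protein-coding genes with distal exon sequence). Among them were Kcnh4 (IDR 5.06e-07, coding exon 9), Kcng1 (1.76e-06, 3′UTR) and Kcnk6 (1.39e-04, coding exon 2). Of 27 glutamate receptor genes, 2 did, among them Grin2c, an NMDA receptor subunit (IDR 0.0168, coding exon 3). Gabbr2, a subunit of the GABA-B receptor, was the only host among 21 GABA receptor genes, with a coding exon peak (8.25e-05) and a 3′UTR peak (0.00295). Among 40 voltage-gated calcium and sodium channel genes the hosts were Scn4a, the sodium channel of skeletal muscle (9.10e-07, 3′UTR), and Cacnb3, a calcium channel subunit (0.0138, 3′UTR). The middle of the Cacnb3 peak occurs 2 times in the genome, and the part of this in its value was not tested. Of 21 postsynaptic scaffold genes the hosts were Shank1 and Dlgap3 (0.00352). With counts of 1 to 4 the Wilson intervals are wide, 1.78 to 11.1% for the potassium channels and 2.06 to 23.4% for the glutamate receptors, and nothing is called particular to these lists.

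The other gene lists held few hosts, so nothing is read from them. Most of their shares were near the 1.16% of all genes with distal exon sequence or rested on 1 or 2 genes. The hosts were 2 of 67 protocadherins (Pcdh1 and Pcdh15), 1 of 67 axon guidance genes (Sema6b, a semaphorin), 1 of 45 collagens (Col4a2) and 1 of 30 genes of the laminin, LRP and Notch group (Lama4). Among 457 zinc finger genes 8 were hosts (1.75%), led by Zbtb7b (IDR 1.07e-06), Zfp503 (3.10e-06), Zfp385a (3.84e-04) and Zfp78 (5.21e-04). Histone methylases and demethylases had 1 of 35, Kmt2a, and solute carriers 2 of 347, Slc9a3 and Slc4a5. Of the 23 HOX genes in the list 0 were hosts. Of 1009 olfactory and vomeronasal receptors, which cortex is not known to use widely, 1 was a host (0.0991%), and its peak, in a 3′UTR of Olfr1396, had an IDR of 0.00702.

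Genes of developmental transcription factors were counted as a list that was chosen after the hosts were seen, so it has no test. Of 39 genes of the SOX, proneural bHLH, RUNX, MYC, NFI and GFI families, 10 held an exonic peak (25.6%): Sox4, Sox9, Sox11, Neurod2, Nhlh1, Nhlh2, Runx1, Mycn, Nfix and Gfi1. Over all protein-coding genes with distal exon sequence the share was 1.16%. Because the families were picked with their hosts known, the higher share is not read as an enrichment. Sox4 had the lowest IDR, 1.33e-07 at chr13:28951406-28951530, in the 3′UTR of its single exon, followed by Sox9 (3.50e-07), a regulator of glial fate, in the last coding exon. Neurod2, a bHLH factor of cortical projection neurons, had 6.05e-06 in its coding exon. The coding exon peak of Neurod2 had a CpG ratio of 1.11 and that of Nhlh2 a ratio of 1.07. An exact motif was present in a peak of Sox4, Sox11, Neurod2, Nfix, Runx1, Mycn and Gfi1. It was absent from the peaks of Sox9, Nhlh1 and Nhlh2 and from the other Sox11 peak. Over all exonic peaks 38 of 222 (17.1%) held it. As the families were picked with their hosts known, nothing is read from their motifs either.

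Host genes of exonic and of intronic peaks were compared for a peak at their start. Of the 216 host genes 101 (46.8%) also had an EGR1 peak within 2 kb of one of their own TSSs, against 751 of 1496 genes (50.2%) that had distal intronic peaks but no exonic peak. The odds ratio of 0.87 (0.65 to 1.17) did not pass (Fisher's exact test, adjusted p = 0.382), and its interval includes no difference. Among all protein-coding genes with distal exon sequence 31.4% had such a peak. An intronic distal peak was also present in 47 of the host genes (21.8%). A TSS-proximal peak lay within 5 kb of 22 of the 225 exonic peaks, and 13 had another peak of any kind within 1 kb. Of the activity-dependent genes and their partners that were looked up by name (Egr1 to Egr4, Nab1, Nab2, Arc, Npas4, Fos, Junb, Bdnf, Galnt9, Grin1, Grin2d, Cacna1g, Cacna1h, Shank1 and Shank3), only Shank1 held an exonic peak by this rule.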

How the data were processed

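EGR1 ChIP-seq of frontal cortex gave 1 processed file, and the input DNA had none that was analysed here. Per the study's methods, trimmed reads were aligned by Bowtie to mm10, SPP was used for peak calling, and the authors merged the 2 replicates at an IDR of 2%. The submitters' processing notes name cutadapt 11.2, Bowtie2 2.2.9 and bedtools 2.26.0. The deposited values are the start and end of each peak and its IDR, which is read like a q-value. How the positions are counted is not given in the sources used here, so they were read as in BED files and printed counted from 1.

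Peaks were assigned by their centre with GENCODE M21, and sequence was taken from GRCm38.p6 for assembled chromosomes (11938 of 12014 peaks). An exon was CDS or UTR of a protein-coding gene. A centre in both counted as coding. Intronic peaks lay in protein-coding genes outside any exon, and intergenic peaks outside any gene. Each block of distal exon was tiled with 250-bp windows, and a shorter block got 1 centred window. Other exon sequence of a gene was compared where it came to 250 bp or more. Fisher's exact, exact sign and exact binomial tests were 2-sided, and adjusted p-values are Benjamini-Hochberg over 11 tests, of which 6 were under 0.05. Odds ratio intervals are exact at 95%. The genes named are the hosts of the 10 exonic peaks of lowest IDR, the 5 coding exon peaks of lowest IDR with a motif, the 3 such 3′UTR peaks, genes with 3 or more exonic peaks, the peak of highest CpG ratio, a list of activity-related genes and up to 4 members of each gene list, and any other gene is said to be chosen afterwards or named as an example of a count. Some genes that this rule names are not reported here. The members, lists and tests were chosen with earlier results of these data known. Tests ran in scipy 1.17.1 under Python 3.11.15, with pandas 2.3.3 and numpy 2.4.6 for tables, matplotlib 3.10.9 for plots and numba 0.67.0 for word counts, and the scripts were tested on simulated data.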

Additional observations from a re-analysis of the deposited data

How the results depend on the processing

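The replicates are merged in 1 list, so none of them could be left out, and the IDR has no error of its own. No paired analysis was possible because both replicates are in that list. Depth is unknown, so absence of a peak in an exon is not absence of binding. Of 52 alternatives, 43 kept the direction and the side of the threshold or, for the number of peaks, stayed within 1.5 times. The 225 exonic peaks became 131 with a TSS limit of 5 kb and 94 in the 50% of peaks with the lowest IDR. By Fisher's exact test with the limit of 5 kb, the odds ratio of the motif was 1.48 against intergenic peaks (p = 0.268) and 0.388 against TSS-proximal peaks (p = 6.39e-04). The comparison with TSS-proximal peaks, 0.72 as reported, reversed to 1.60 with GCGTGGGCG alone (Fisher's exact test, p = 0.0676), and passed at 0.5 with 1 mismatch allowed (p = 7.12e-06) and at 0.571 with 1 peak per gene or 100 kb (p = 0.00213). Coding exon against 3′UTR peaks gave 2.73 with 1 mismatch allowed (Fisher's exact test, p = 8.21e-04). The IDR comparison with TSS-proximal peaks gave 0.681 at a limit of 0.01 (Fisher's exact test, p = 0.0738). The cause of these changes was not tested, other than that fewer peaks enter at 5 kb or in a subset. The odds ratio of the motif against intronic peaks stayed between 2.02 and 4.07 in all 9 of its alternatives. The CpG ratio comparisons kept their calls in all 8 of theirs, among them those that used GC content in place of the ratio. The 6 alternatives with RefSeq TSSs, with peaks under a CpG ratio of 0.6 or with moved centres were added after seeing the data.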
